A study of Mus with 12 samples.

Results

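The C-X-C chemokine genes Cxcl1, Cxcl2, Cxcl3, Cxcl10 and Pf4 were followed across 12 libraries of mouse kidney cells, as 5 of the 754 gene probes on an immune panel. They were chosen by name: Cxcl1, Cxcl2 and Cxcl3 as neutrophil attractants, Cxcl10 as an interferon-induced chemokine, and Pf4, also called Cxcl4, as platelet factor 4. The choice was made with earlier results of these data known. Shares over all genes are therefore given beside the 5 genes as a description, not as a test. The cells were selected on magnetic beads through F4/80, a surface protein of mouse macrophages encoded by Adgre1. Transcripts were counted with NanoString probes, fluorescent barcodes read on single RNA molecules without amplification. Both kidneys of 6 mice gave 4 groups of 3 libraries: injured kidneys of Aif1 knockout mice (KO, Aif-1-/-), contralateral kidneys of the same KO mice, injured kidneys of wild-type mice (WT, Aif-1+/+), and contralateral kidneys of the same WT mice. In every mouse the left kidney had been made ischemic for 30 min, both kidneys were taken at day 4, and the right kidney was the mouse's own control. The KO mice were numbers 17, 23 and 32 and the WT mice numbers 12, 26 and 36. Both kidneys of every mouse therefore came from an animal with an injured kidney. The sources used here do not give the strain, age and sex of the mice, the exons deleted in the KO allele or the purity of the selected cells.

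Chemokines are small secreted proteins that guide leukocytes along a gradient by binding receptors coupled to G proteins. In the C-X-C class the first pair of conserved cysteines is separated by another residue. Cxcl1, Cxcl2 and Cxcl3 signal through the receptor Cxcr2 on neutrophils, and their genes are switched on rapidly by interleukin-1, tumour necrosis factor and toll-like receptor signals through NF-kappa B. Cxcl10 signals through Cxcr3 on activated T cells and natural killer cells and is induced by interferons. Pf4 is stored in the granules of platelets and is also transcribed by tissue macrophages. In a RefSeq gene table of the mouse assembly GRCm38.p6, Pf4, Cxcl3, Cxcl1 and Cxcl2 lie in this order in a run of chemokine genes on chromosome 5, and Cxcl10 lies further along the same chromosome. Cxcl1, Cxcl2 and Cxcl3 are close relatives. The probe sequences were not used here, so a probe's reading of a relative's transcript could not be checked.

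Total counts ran from 255274 to 904220 per library. The geometric mean of 20 housekeeping genes differed 7.65-fold between libraries, and that of the positive controls 1.18-fold. The 3 highest housekeeping counts were those of the injured kidney of KO mouse 17 and of the 2 kidneys of WT mouse 12. All counts were therefore scaled before comparison with TMM factors, which assume that most genes do not differ between libraries. They are given as normalised counts unless called raw. The macrophage markers Adgre1, Csf1r and Cd68 were read above every negative control in 12 of 12 libraries. The summed normalised counts of 4 kidney tubule markers also ran high, from 5561 to 23200 in KO injured, 11880 to 16050 in KO contralateral, 3876 to 45760 in WT injured and 12020 to 67640 in WT contralateral libraries, and in both WT groups mouse 12 was the highest. Raw Aif1 counts were 64 to 93 in KO injured, 54 to 83 in KO contralateral, 74 to 95 in WT injured and 57 to 72 in WT contralateral libraries. This probe did not separate the genotypes, its place relative to the deletion is not known here, and KO and WT are used as the labels give them.

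Cxcl1 rose in the injured kidney, most in KO mice 17 and 23. Its normalised counts were 938, 579 and 234 in the injured kidneys of KO mice 17, 23 and 32, against 143, 202 and 150 in their contralateral kidneys. In WT mice 12, 26 and 36 they were 508, 209 and 380 in the injured kidneys, against 262, 159 and 171 in the contralateral kidneys. The injured kidney was the higher one in each of the 6 mice, by 1.31-fold in WT mouse 26 at the least and 6.55-fold in KO mouse 17 at the most. The lowest KO injured value lay above all KO contralateral values, whereas the WT injured and contralateral values overlapped. The fit that averaged both genotypes gave a log2 fold change of 1.24 ± 0.23 (SE, 6 mice), a 2.37-fold difference (edgeR's quasi-likelihood test with mouse as a block, Benjamini-Hochberg adjusted p = 0.0018 over 682 genes). An exact two-sided sign-flip permutation test of the 6 per-mouse ratios, which borrows nothing from other genes, gave p = 0.031, the smallest that 6 mice allow. The group means ordered as 584 ± 352 in KO injured, 366 ± 150 in WT injured, 197 ± 56.2 in WT contralateral and 165 ± 32.3 in KO contralateral kidneys (SD, n = 3 each), and the ranges of each neighbouring pair in that order overlapped.

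Cxcl2 showed the largest fitted response of the 5 genes in KO mice. In KO mice 17, 23 and 32 its normalised counts were 2062, 1311 and 902 in the injured kidneys, against 452, 172 and 378 in the contralateral kidneys. In WT mice 12, 26 and 36 they were 538, 586 and 1022 in the injured kidneys, against 408, 586 and 346 in the contralateral kidneys. All 3 KO injured values lay above all 3 KO contralateral values. WT mouse 26 had nearly equal counts in its kidneys, WT mouse 12 a small one (1.32-fold), and WT mouse 36 a 2.96-fold one, within the KO range of 2.39 to 7.61-fold. The averaged log2 fold change was 1.39 ± 0.27 (SE, 6 mice; edgeR adjusted p = 0.0025), a 2.61-fold difference. The exact sign-flip permutation test gave p = 0.063, with 5 of 6 mice higher in the injured kidney. Group means were 1425 ± 588 in KO injured, 715 ± 266 in WT injured, 447 ± 125 in WT contralateral and 334 ± 145 in KO contralateral kidneys (SD, n = 3 each). The KO injured and WT injured ranges overlapped through WT mouse 36 and KO mouse 32, as did those of the other neighbours in this order.

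**Figure D1:**
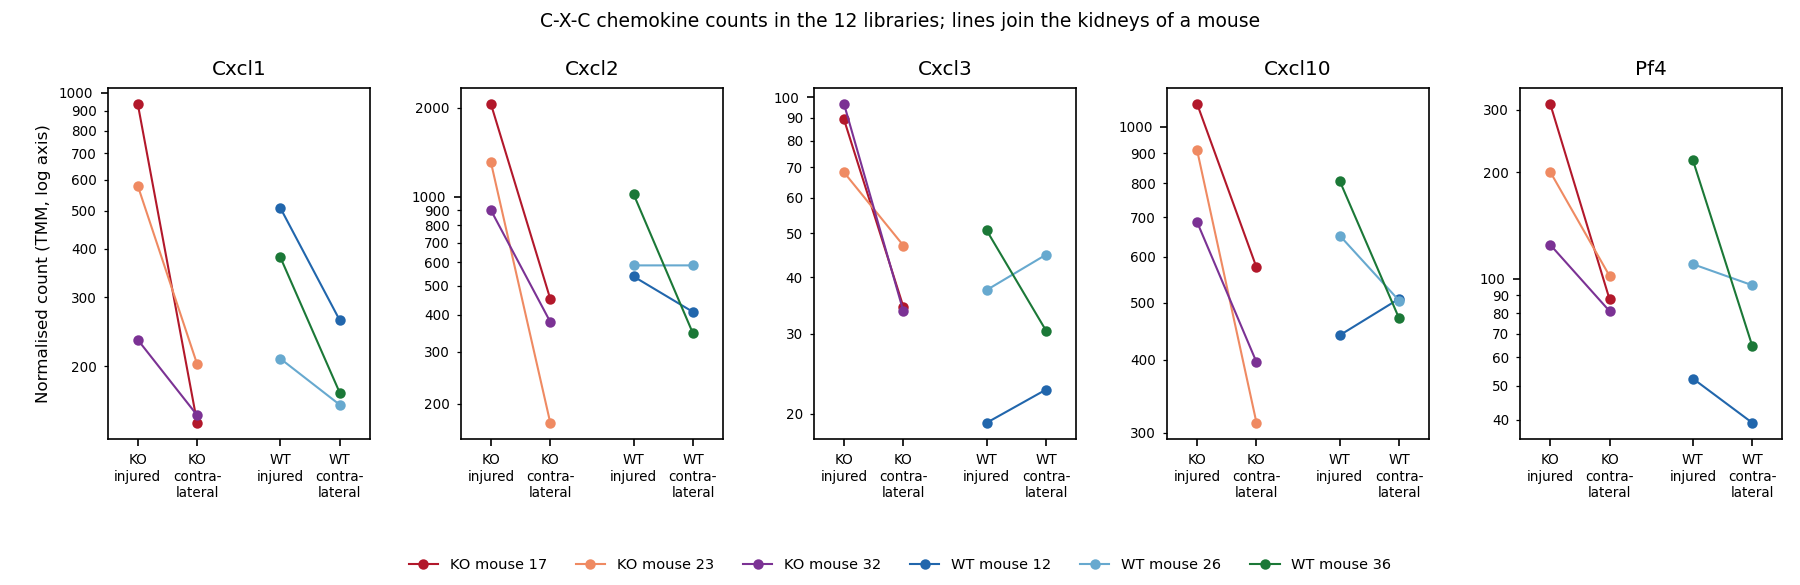
Normalised counts (log axis, a different range in each panel) of the 5 chemokine genes in the 12 libraries, with KO injured, KO contralateral, WT injured and WT contralateral kidneys from left to right. Each point is 1 library, a line joins both kidneys of a mouse, and all KO lines fall toward the contralateral kidney while WT mice 12 and 26 are flat or slope upward in some panels.

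Cxcl3 was read above background in the injured kidneys of KO mice and in no other group. Its raw counts were 208, 81 and 55 in the injured kidneys of KO mice 17, 23 and 32, against 24, 36 and 22 in their contralateral kidneys. In WT mice 12, 26 and 36 they were 39, 31 and 42 in the injured kidneys, against 42, 29 and 33 in the contralateral kidneys. Single negative controls, probes with no target, ran from 10 to 58, and the detection threshold set from them (mean plus 2 SD) was 53.1. The 3 KO injured counts were above that threshold and above the highest negative control of their own library, though KO mouse 32 reached it narrowly, with 55 against a highest control of 48. The other 9 counts were below both. These are raw counts, which do not depend on the scaling, but they do depend on the amount of RNA, whose part was not tested. The geometric mean of the raw macrophage marker counts was 1513, 616 and 236 in the injured libraries of KO mice 17, 23 and 32, against 445, 325 and 435 in those of WT mice 12, 26 and 36.

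Because Cxcl3 passed the filter on low counts only through the KO injured group, its inclusion in the tests already carried that difference, and its fitted values are no support for it. The fitted log2 fold change of the injured over the contralateral kidney was 1.13 ± 0.35 in KO mice (SE, 3 mice; edgeR adjusted p = 0.063) and 0.08 ± 0.35 in WT mice (adjusted p = 0.97). The KO value did not pass, and it did with DESeq2 (adjusted p = 0.012) and without the filter (adjusted p = 0.028). Neither value is an exact fold, since the contralateral counts are background. Subtraction of each library's mean negative control gave 4.26 in KO mice, a value that depends on the floor of 1 count set for libraries below background.

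**Figure D2:**
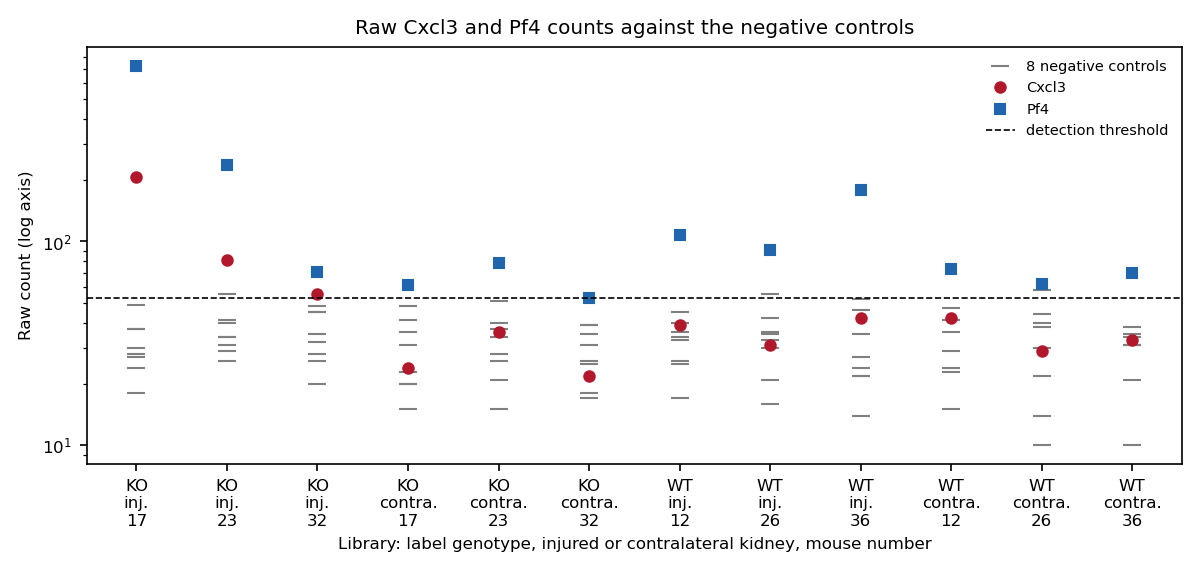
Raw counts (log axis) of Cxcl3 (circles) and Pf4 (squares) in each library, with the 8 negative controls of that library as grey dashes and the detection threshold of 53.1 as a broken line. Cxcl3 stands above the controls in the 3 KO injured libraries alone, and Pf4 reaches 726 in KO mouse 17 and falls as low as 53 in the contralateral kidney of KO mouse 32.

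Cxcl10 was higher in the injured kidneys of KO mice and varied in direction among WT mice. In KO mice 17, 23 and 32 its normalised counts were 1094, 912 and 687 in the injured kidneys, against 575, 312 and 396 in the contralateral kidneys. In WT mice 12, 26 and 36 they were 440, 652 and 808 in the injured kidneys, against 508, 504 and 470 in the contralateral kidneys. The KO groups did not overlap. The WT contralateral values lay close together (494 ± 20.9, SD, n = 3), and the injured value fell below them in mouse 12 and above them in mice 26 and 36. The averaged log2 fold change, 0.70 ± 0.21 (SE, 6 mice), a 1.63-fold difference, missed the threshold by a narrow margin (edgeR adjusted p = 0.051). It passed with DESeq2 (adjusted p = 0.029), with limma-voom (0.041), with background subtraction (0.027), with housekeeping scaling (0.040) and without mouse 17 (0.042). It also passed without mice 12 and 17 (0.048) and where the 20 housekeeping genes stayed among the genes tested (0.045). Without mouse 32 it passed too (6.06e-04), when 223 of the 682 genes were called, against 54 with all mice. It did not pass without mouse 12, 23, 26 or 36 (adjusted p from 0.091 to 0.55), with DESeq2's size factors in edgeR (0.13), without the filter (0.095), without the mouse block (0.19), with positive control scaling (0.48) or with macrophage marker scaling (0.72). The exact sign-flip permutation test gave p = 0.063, with 5 of 6 mice higher. Group means were 898 ± 204 in KO injured, 633 ± 184 in WT injured, 494 ± 20.9 in WT contralateral and 428 ± 134 in KO contralateral kidneys (SD, n = 3 each). Each neighbouring pair of these groups overlapped.

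Pf4 rose in the injured kidney from counts close to the background. Its raw counts were 726, 238 and 71 in the injured kidneys of KO mice 17, 23 and 32, against 61, 78 and 53 in the contralateral kidneys, and 107, 91 and 179 in the injured kidneys of WT mice 12, 26 and 36, against 73, 62 and 70 in the contralateral kidneys. All 12 exceeded the highest negative control of their library, and 11 of 12 reached the threshold. Normalised counts were 312, 200.5 and 125 in KO injured, against 87.5, 102 and 81.0 in KO contralateral kidneys, which did not overlap. In WT mice 12, 26 and 36 they were 52.3, 110.0 and 216 in the injured kidneys, against 39.3, 95.9 and 64.7 in the contralateral kidneys. The WT groups overlapped, with both scaled values of mouse 12 the lowest of their groups. The raw counts of mouse 12, 107 and 73, were not the lowest of their groups. The part of library size in its scaled values was not tested. The injured kidney was the higher one in all 6 mice. The averaged log2 fold change was 0.98 ± 0.23 (SE, 6 mice; edgeR adjusted p = 0.010), a 1.97-fold difference, and the exact sign-flip permutation p was 0.031. The call was lost without mouse 36 (adjusted p = 0.13), with housekeeping scaling (0.072), without the mouse block (0.18) and with macrophage marker scaling (0.52). After background subtraction the log2 value was 1.38.

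In the comparison averaged over both genotypes, 3 of the 5 genes were thus called higher (Cxcl1, Cxcl2 and Pf4) and none lower. Of the 682 genes tested 7.92% were called, 7.33% higher and 0.587% lower. Because the 5 genes were chosen with earlier results of these data known, these shares are no test of the 5 as a set. Cxcl1 and Pf4 had the higher count on the injured side in each of the 6 mice, as did 8.8% of the 682 genes. The 5 genes had a median log2 fold change of 0.98, and all genes tested one of -0.07. Scaled to the positive controls, the genes called were Cxcl3 and Pf4, where 41 of all 682 genes were called. For Cxcl3, which passed the filter through the KO injured group alone, this call is no support for a rise. With this scaling the median over all genes tested shifted by 0.34. Cxcl1 and Cxcl2 then lost their calls at larger values (1.55, adjusted p = 0.12, and 1.76, adjusted p = 0.10).

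In KO mice alone, Cxcl1, Cxcl2, Cxcl10 and Pf4 rose after injury, 4 of the 5 genes, where 6.74% of all genes tested were called and 6.6% were called higher (45 higher and 1 lower, and 47 higher and 12 lower with DESeq2's size factors). The log2 fold changes were 2.12 ± 0.39 for Cxcl2 (adjusted p = 0.0031), 1.64 ± 0.33 for Cxcl1 (0.0051), 1.16 ± 0.32 for Pf4 (0.036) and 1.09 ± 0.30 for Cxcl10 (0.035; SE of the fit, 3 mice, edgeR). This fit estimates the spread of each gene from all 12 libraries, so its SEs are not the spread of the KO mice alone. The per-mouse log2 ratios of the KO mice had SDs of 0.838 for Cxcl2, 1.04 for Cxcl1, 0.623 for Pf4 and 0.401 for Cxcl10. Without the mouse block none of the 5 genes was called in KO mice. Between the KO injured and KO contralateral kidneys none of the 5 genes overlapped, as was so for 12.9% of all genes tested in that direction. For Cxcl3, which passed the filter through the KO injured group alone, this separation is no support for a rise. Cxcl1 remained called whichever of the 6 mice was left out. Cxcl2 was lost without mouse 23 (adjusted p = 0.091). Cxcl10 was lost without mouse 12, 23, 26 or 36 (adjusted p from 0.052 to 0.43), and Pf4 without mouse 12, 17 or 23 (0.055 to 0.20). In the fit on the KO libraries alone, Cxcl1 and Cxcl2 were called. Without mice 12 and 17, an exclusion chosen after the data were seen, Cxcl1 and Cxcl2 were called as well.

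In WT mice none of the 5 genes was called by edgeR, by DESeq2 or by limma-voom, where edgeR called 0.733% of all genes higher. At an unadjusted p under 0.05 edgeR counted 2 of them, Cxcl1 and Pf4, and 57 of all 682 genes. All 5 log2 fold changes were positive: 0.84 ± 0.31 for Cxcl1, 0.79 ± 0.32 for Pf4, 0.65 ± 0.37 for Cxcl2, 0.31 ± 0.30 for Cxcl10 and 0.08 ± 0.35 for Cxcl3 (SE of the same joint fit to all 12 libraries, 3 mice; adjusted p from 0.35 to 0.97). The median over all genes tested was 0.08, at the Cxcl3 value, and the Cxcl3 counts of WT mice were background. Of the 8 other ligands on the panel 6 were above 0 in WT mice as well. Cxcl1 and Pf4 were higher in the injured kidney of 3 of 3 WT mice, as were 26% of all genes tested. Both were called in the edgeR fit on the WT libraries alone (Cxcl1 0.78, adjusted p = 0.0018, and Pf4 0.76, adjusted p = 3.45e-04). In that fit 55 genes of the panel were called, against 5 in the joint fit. Both were also called in the joint fit without KO mouse 17 (adjusted p = 0.046 for both), where 28 of all 682 genes were. Without KO mouse 32 they were called as well (0.0065 and 0.023), where 48 of all 682 genes were. The WT injured and WT contralateral counts overlapped for all 5 genes, where 3.67% of all genes tested lay above without overlap.

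**Figure D3:**
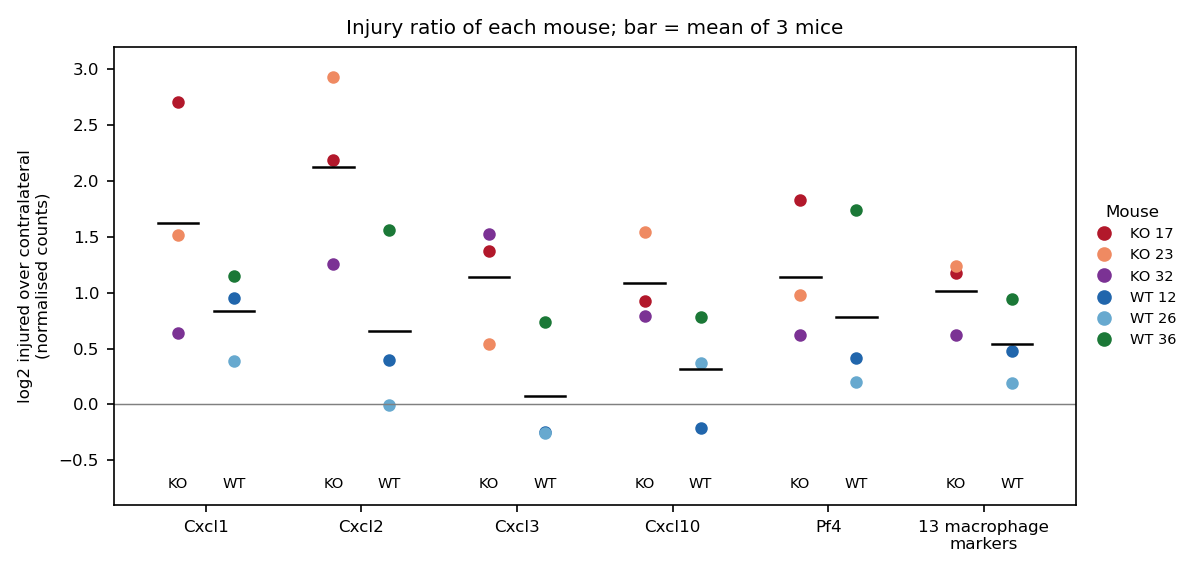
Log2 ratio of the injured over the contralateral kidney for each mouse, KO left and WT right of each gene, with a bar at the mean of 3 mice; the last column gives the mean log2 ratio of 13 macrophage markers. Cxcl2 is highest in KO mouse 23 (2.93), WT mouse 36 lies above the other WT mice for each gene and for the macrophage markers, and for Cxcl10 the KO and WT ratios do not overlap.

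Whether the response differed between the genotypes was asked with the interaction term, the KO response minus the WT response. It was positive for all 5 genes, at 1.47 ± 0.53 for Cxcl2, 1.05 ± 0.49 for Cxcl3, 0.80 ± 0.45 for Cxcl1, 0.78 ± 0.42 for Cxcl10 and 0.37 ± 0.45 for Pf4 (log2, SE, 3 mice per genotype). The Cxcl2 value was the highest of the 682 genes, whose median was -0.02. No gene of the panel was called (0% of 682, with 75 genes at an unadjusted p under 0.05, Cxcl2 and Cxcl3 among them), and the edgeR adjusted p was 0.41 for Cxcl1, Cxcl2, Cxcl3 and Cxcl10 and 0.61 for Pf4. Cxcl3 passed the filter through the KO injured group alone, so neither its value nor its unadjusted p is support for a difference. DESeq2 and limma-voom called none of the 5 either. Without KO mouse 32 edgeR called Cxcl2 (2.02, adjusted p = 5.48e-05), Cxcl1 (1.38, 5.61e-04) and Cxcl10 (1.04, 0.018), when 323 of the 682 genes were called. Leaving out any other mouse called none of them. The per-mouse ratios of Cxcl10 were 0.93, 1.55 and 0.80 in KO mice 17, 23 and 32, against -0.21, 0.37 and 0.78 in WT mice 12, 26 and 36 (log2). They did not overlap, as for 4.69% of all genes with KO above WT, yet KO mouse 32 and WT mouse 36 stood close together at 0.80 and 0.78. The ratios of the other 4 genes overlapped.

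Set against each other directly, KO injured and WT injured kidneys differed by 1.27 ± 0.40 for Cxcl3, 0.996 ± 0.45 for Cxcl2, 0.77 ± 0.50 for Pf4, 0.68 ± 0.46 for Cxcl1 and 0.51 ± 0.34 for Cxcl10 (log2, KO over WT, SE, 3 mice each). EdgeR called none of the 682 genes (0%; adjusted p = 1 for each of the 5), with 5 genes at an unadjusted p under 0.05, among them Cxcl3 and Cxcl2. DESeq2 called 3 of the 682 genes, Cxcl3 among them (1.27, adjusted p = 0.034). The Cxcl3 groups did not overlap, nor did 2.64% of all genes with KO above WT. Since Cxcl3 passed the filter through the KO injured group alone and its WT injured counts were background, neither is support for a difference. In the contralateral kidneys the same values were 0.26 ± 0.41 for Cxcl3, -0.42 ± 0.45 for Cxcl2, 0.45 ± 0.51 for Pf4, -0.26 ± 0.46 for Cxcl1 and -0.21 ± 0.34 for Cxcl10. None was called by edgeR (adjusted p from 0.72 to 0.77; 0% of all genes), by DESeq2 or by limma-voom, none had an unadjusted p under 0.05, and the KO and WT values of each gene overlapped, where 11.9% of all genes tested did not overlap in one direction or the other. The contralateral signs of Cxcl1 and Cxcl10 turned under housekeeping scaling (0.12 and 0.049), those of Cxcl3 and Pf4 under positive control scaling (-0.32 and -0.070). These contrasts share their libraries with the injury comparisons above.

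The macrophage markers moved with the chemokines. Of 13 markers tested, 9 were called higher in the averaged comparison, where 7.33% of all genes tested were. The median log2 fold change of the 13 was 0.94. Among those called were Cd68 (1.31 ± 0.21), Itgam (1.27 ± 0.19) and Mrc1, the mannose receptor (1.26 ± 0.19). The F4/80 gene Adgre1 itself rose by 0.67 ± 0.18 (edgeR adjusted p = 0.034). The mean injury ratio of the 13 markers was 2.27, 2.35 and 1.54-fold in KO mice 17, 23 and 32, against 1.39, 1.15 and 1.93-fold in WT mice 12, 26 and 36. Their summed normalised counts ran from 7380 to 12830 in KO injured and 3371 to 4816 in KO contralateral kidneys, and from 3996 to 9347 in WT injured and 2781 to 5733 in WT contralateral kidneys. In bulk libraries a change in the number of macrophages and a change in the RNA of each cannot be told apart.

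The counts were also scaled to the geometric mean of those 13 markers. This scaling was chosen after the data were seen, and with it the median over all genes tested shifted by -0.78 in the averaged comparison. Cxcl2 (0.61) and Cxcl1 (0.46) were still called higher, while Pf4 stood at 0.19 (adjusted p = 0.52), Cxcl10 at -0.076 (0.72) and Cxcl3 at -0.17 (0.57). In KO mice Cxcl2 stood at 1.11 and was called. Cxcl1 stood at 0.61 (adjusted p = 0.056), and Pf4, Cxcl3 and Cxcl10 at 0.13, 0.11 and 0.08. The Cxcl1 ratio was above the marker ratio in all 6 mice (mean log2 difference 0.45, exact sign-flip permutation p = 0.031), that of Cxcl2 in 4 of 6 (0.61, exact p = 0.13), that of Pf4 in 4 of 6 (0.19, exact p = 0.41) and that of Cxcl10 in 3 of 6 (-0.074, exact p = 0.72). The Pf4 and marker log2 ratios were nearly equal in KO mouse 32 (0.623 and 0.621) and WT mouse 26 (0.198 and 0.196). Those of Cxcl1 and the markers were close in KO mouse 32 (0.642 and 0.621) and furthest apart in KO mouse 17 (2.71 and 1.18). Over all genes the scaling to the markers called 16 higher and 559 lower.

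**Figure D4:**
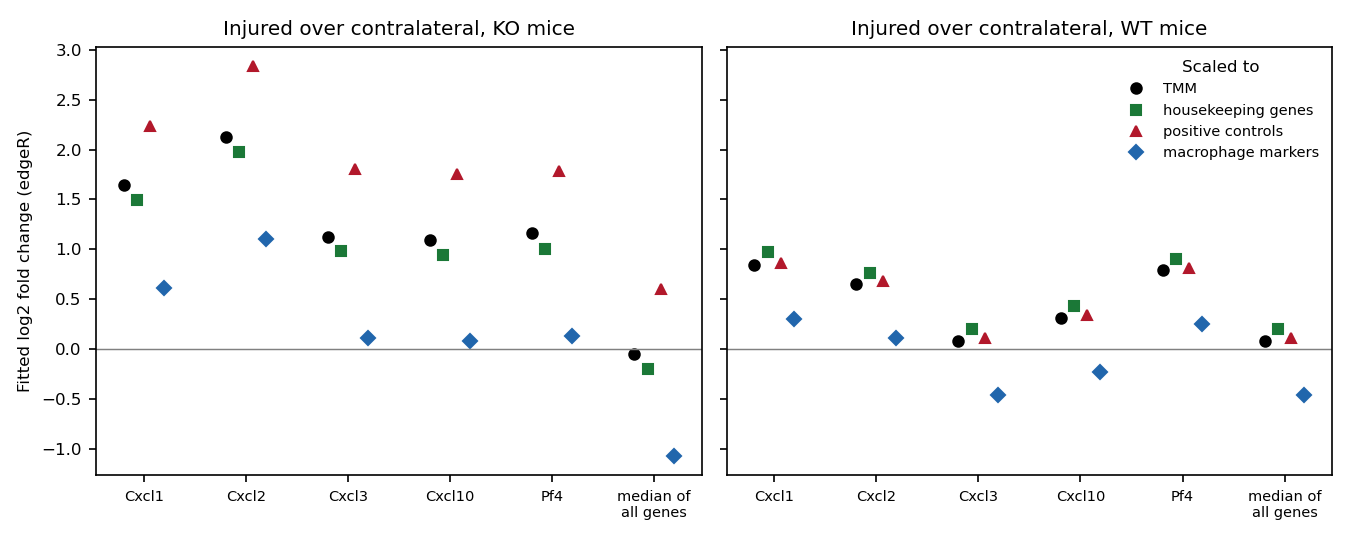
Fitted log2 fold change of the injured over the contralateral kidney in KO mice (left) and WT mice (right) under 4 scalings of the counts, for the 5 genes and, in the last column, for the median of all genes tested. Scaled to macrophage markers (diamonds), Cxcl2 and Cxcl1 stand highest among the 5 genes in KO mice, while Cxcl3, Cxcl10 and Pf4 lie near 0.

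The other ligands of the family were not called. Of 8 further C-X-C and CX3C ligands on the panel none was called in any of the 6 comparisons (edgeR). Their median log2 fold change in the averaged comparison was 0.05. Cxcl5, a Cxcr2 ligand whose gene lies beside this cluster, stood at -0.49 ± 0.36 in KO and 0.25 ± 0.35 in WT mice, with raw counts of 42 to 82 that lay at or just above background. Cxcl9 and Cxcl11, which share the receptor Cxcr3 with Cxcl10 and are also interferon-induced, stood at -0.09 ± 0.27 and -0.58 ± 0.36 in KO mice and at 0.67 ± 0.27 and 0.11 ± 0.34 in WT mice. Cxcl16, a membrane-bound ligand made by macrophages, stood at 0.78 ± 0.30 in KO mice (adjusted p = 0.14) and 0.13 ± 0.29 in WT mice. Cxcl13, a B cell attractant, stood at -0.94 ± 0.30 in KO mice (adjusted p = 0.069) and 0.17 ± 0.29 in WT mice. Raw Cxcl13 counts were 64 to 107 in KO injured and 81 to 137 in KO contralateral libraries. Those of Cxcl11 were 104 to 138 in KO injured and 71 to 138 in KO contralateral libraries. The part of library size in these scaled values was not tested.

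The receptors were not called either. Of 6 C-X-C receptor genes none passed in any comparison, and their median was -0.58 in KO mice (1 of 6 above 0), 0.13 in WT mice (5 of 6 above 0) and -0.19 in the averaged comparison. In KO injured libraries the raw counts of Cxcr1, Cxcr5 and Cxcr6 were 42 to 67, 66 to 111 and 65 to 98. In KO contralateral libraries they were 40 to 57, 61 to 136 and 64 to 103. The part of library size in the receptor medians was not tested. Cxcr2, the receptor of Cxcl1, Cxcl2 and Cxcl3, had raw counts of 53 to 76 in KO injured, 44 to 94 in KO contralateral, 53 to 85 in WT injured and 43 to 78 in WT contralateral libraries, and its averaged log2 fold change was -0.18 ± 0.25 (adjusted p = 0.75). Cxcr3, the receptor of Cxcl10, exceeded the highest negative control in 4 of 12 libraries. Cxcr4, the receptor of Cxcl12, came nearest to the threshold, at 0.69 ± 0.22 in KO mice (edgeR adjusted p = 0.075). In the averaged comparison it stood at 0.47 ± 0.15 (adjusted p = 0.087).

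**Figure D5:**
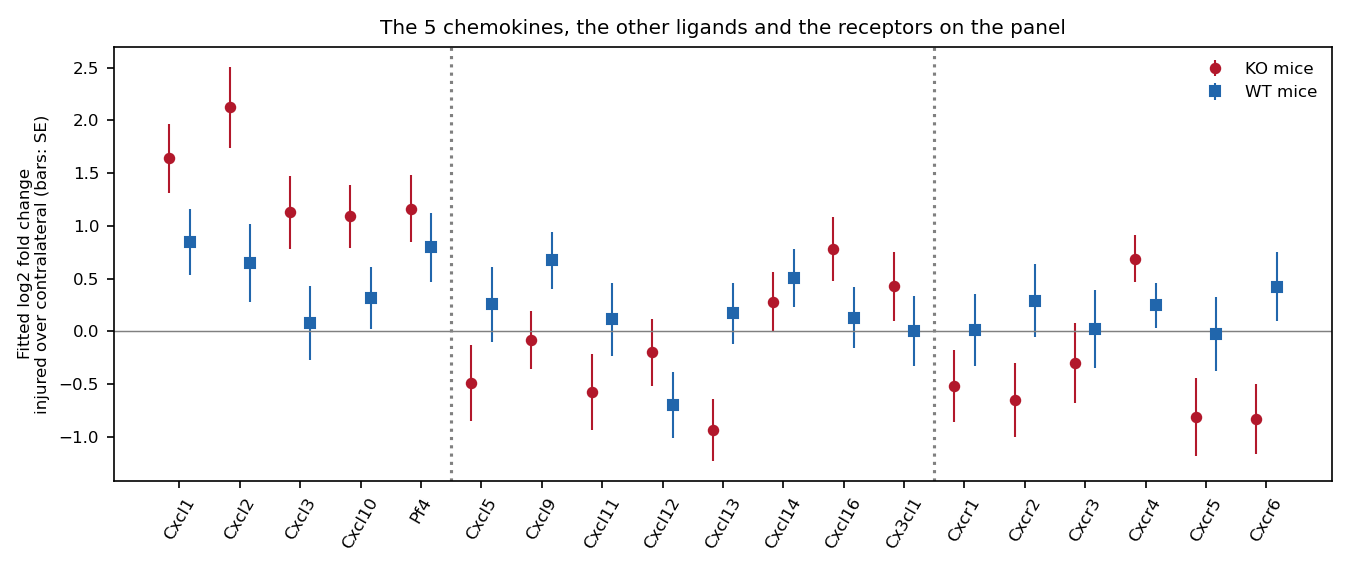
Fitted log2 fold change of the injured over the contralateral kidney, with its SE, in KO mice (circles) and WT mice (squares) for the 5 chemokine genes, the 8 other ligands and the 6 receptors, separated by dotted lines. The 5 genes at the left lie above 0 in both genotypes, though Cxcl3 in WT mice (0.08) lies at the median of all genes tested (0.08). The other ligands lie on both sides of 0, and in KO mice 5 of the 6 receptors lie below 0. In WT mice 6 of the 8 other ligands and 5 of the 6 receptors lie above 0 as well.

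Among the inducers of the neutrophil attractants, Il1a and Tnf were called higher in the averaged comparison, 2 of 14 interleukin-1, tumour necrosis factor and toll-like receptor genes. Of all genes tested 7.33% were called higher in that comparison. Tnf, which encodes tumour necrosis factor, rose by 0.66 ± 0.18 (edgeR adjusted p = 0.036). Il1a, which encodes interleukin-1 alpha, had raw counts of 41 to 343 in KO injured and 8 to 16 in KO contralateral libraries, and of 29 to 57 in WT injured and 12 to 24 in WT contralateral libraries. No contralateral count exceeded a library's highest negative control, so Il1a passed the filter through injured libraries, and neither its call nor its fitted 2.04 ± 0.26 is support for a rise. In KO mice alone Il1a was the member called, with the same limit, and in WT mice none was. The median of the 14 was 0.21.

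Neutrophil and platelet markers were not called. Of 13 neutrophil markers 12 passed the filter, and none was called in any comparison (edgeR), with a median of -0.49 in KO mice (2 of 12 above 0), 0.10 in WT mice (8 of 12 above 0) and -0.19 in the averaged comparison. Their raw counts ran from 29 to 284, and their scaled sums were lowest in the 3 libraries with the highest endogenous counts, the injured kidney of KO mouse 17 and the 2 kidneys of WT mouse 12. The part of library size in these sums was not tested. Their summed normalised counts were 562 to 1842 in KO injured, 1208 to 1461 in KO contralateral, 497 to 1776 in WT injured and 514 to 1912 in WT contralateral libraries, and the defining marker Ly6g read 35 to 85 raw counts in KO injured and 54 to 65 in KO contralateral libraries, near the negative controls. Of the platelet list 2 genes were on the panel. Clec1b did not pass the filter, at 31 to 57 raw counts, and Selp, the P-selectin gene of platelets and endothelium, stood at -0.13 ± 0.21 (adjusted p = 0.78). The part of platelets in the Pf4 counts was not tested beyond these 2 genes. No endothelial or stromal marker of 7 and neither of 2 lymphocyte markers was called. Of the 4 tubule markers the injury marker Havcr1 rose (1.01 ± 0.19, adjusted p = 0.0025) and Egf fell by 1.80 on the log2 scale (adjusted p = 0.033). Fbp1 was called lower (adjusted p = 0.038) but exceeded the highest negative control in 5 of 12 libraries, so no fold is given. The part of tubule RNA in the chemokine counts was not tested.

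The genes whose levels followed each chemokine most closely over the 12 libraries differed between them. For Cxcl1 they were the transcription factor gene Myc (Pearson r = 0.96, Spearman rho = 0.86), the progranulin gene Grn (0.91 and 0.85) and the adhesion molecule gene Icam1 (0.90 and 0.77). For Cxcl2 they were the lipid carrier gene Apoe (0.96 and 0.91), Tyrobp, which encodes a signalling adaptor of myeloid receptors (0.95 and 0.97), and Il1a (0.95 and 0.92), whose counts were background in 8 of 12 libraries. For Cxcl10 they were Sirpa, Il1a and the complement gene C1qb (r from 0.93 to 0.94). For Pf4 they were the macrophage genes Mrc1 (0.97 and 0.98), Itgam (0.96 and 0.91) and the complement receptor gene C5ar1 (0.96 and 0.92). For Cxcl3 they were Adam8, Tnfrsf11a and Clec7a (r from 0.88 to 0.91), a likeness that rests on 9 background counts. Among the 5 genes themselves Cxcl2 and Cxcl10 were the most alike by Pearson r (0.95, rho 0.89), Cxcl3 and Pf4 by Spearman rho (0.92, r 0.85), and Cxcl1 and Cxcl3 were the least alike by both (0.34 and 0.34). These correlations are descriptions over libraries that pair the kidneys of a mouse and share the scaling and the amount of RNA. Raw counts of the 5 genes correlated with the macrophage marker mean at r = 0.88 to 0.96 and with the housekeeping mean at r = 0.46 to 0.85.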

How the data were processed

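The counts were used as deposited: the table gives 768 probes by 12 libraries in whole numbers, still with its control probes, and records no normalization. RNA of the selected cells was processed by the NanoString manufacturer's protocol, per the labels' protocols; the sources used here name neither the panel nor the software that made the counts. A name list marked 20 housekeeping genes, which left 734 endogenous genes beside 6 positive and 8 negative controls. Genes reaching 53.1 raw counts (mean plus 2 SD of the negative controls) in at least 3 libraries were kept (682). Counts were scaled with TMM factors and tested with edgeR 4.0.16 in R 4.3.3, for injury with mouse as a fixed block and for KO against WT on group means. Adjustment was by Benjamini-Hochberg over the 682 genes, with calls at an adjusted p under 0.05. SEs were derived from each log2 fold change and its F statistic, with the spread of a gene estimated over all libraries of the fit. Alternatives used DESeq2 1.42.0, limma 3.58.1, other scalings, no filter, background subtraction and each mouse left out. The 5 genes and the lists were chosen with earlier results of these data known. Pairing rests on the shared animal. Deviations from group means correlated between the kidneys of a mouse at 0.96, 0.88 and 0.72 in WT mice 12, 26 and 36 and at -0.13, 0.37 and -0.49 in KO mice 17, 23 and 32. No replicates agreed within sampling noise (lowest chi-square per degree of freedom 5.96). Gene names were used as in the file, and 744 of 754 matched a RefSeq symbol of GRCm38.p6. Named besides the 5 genes were the 3 genes most like each over the libraries, up to 4 genes per list with the smallest p in the averaged comparison, Aif1, Adgre1, Cxcr2 and Cxcr3. Csf1r, Cxcl5, Cxcl9, Cxcl11, Clec1b and those named as called by a test fall outside that rule. The fits were also run on simulated counts with the same spread for every gene and no mouse effect. That run does not show how the fits behave on these data. The planned description of protein and promoter sequences was not made. The result of another gene list is not reported here.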

Additional observations from a re-analysis of the deposited data

How the results depend on the processing

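The number of the 5 genes called depended on the pairing and the scaling. Without the replicate block 1 gene was called in the averaged comparison (Cxcl2) and 0 in KO mice, against 3 and 4 with it. In KO mice 2 were called with housekeeping scaling (Cxcl1 and Cxcl2), where 32 of all 682 genes were. With positive control scaling 2 were called (Cxcl3 and Pf4), where 33 of all 682 genes were. Cxcl1 and Cxcl2 then stood at 2.23 and 2.83 and lost their calls. The Cxcl3 calls counted in this paragraph are no support for a rise, since Cxcl3 passed the filter through the KO injured group alone. Of the 5 genes 2 were called in the KO libraries alone, 2 in KO mice without mice 12 and 17, and 1 in KO mice with macrophage marker scaling. Leaving out 1 mouse at a time gave 2 to 4 genes in the averaged comparison, 1 to 5 in KO mice, 0 to 2 in WT mice and 0 to 3 for the difference of the responses. In WT mice 2 were called in the WT libraries alone, where 55 of all 682 genes were. Between KO and WT injured kidneys DESeq2 called 3 of all 682 genes. Of the 5 genes only Cxcl3 was among them, and with the limit just given this is no support for a difference. In the per-mouse ratios Cxcl2 reached 1.73 (exact permutation p = 0.031) with positive control scaling, and with macrophage marker scaling Pf4 stood at 0.19, Cxcl10 at -0.074 and Cxcl3 at -0.16. The cause of these changes was not tested.

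Signs turned for some values that were not called with TMM scaling. For Cxcl3 in WT mice they were -0.022 with DESeq2 size factors and with DESeq2, -0.0036 without the filter, -0.25 to 0.25 with 1 mouse left out (below 0 without mouse 17 or 36) and -0.46 with macrophage marker scaling. That scaling also turned Cxcl10 in WT mice (-0.23) and in the averaged comparison (-0.076), Cxcl3 in the averaged comparison (-0.17), the difference of responses of Pf4 (-0.11), and KO against WT in injured kidneys for Cxcl1 (-0.20) and Cxcl10 (-0.033). Without mice 12 and 17 the difference of responses of Pf4 was -0.15, and KO against WT was -0.0040 for Pf4 in injured and 0.032 for Cxcl1 in contralateral kidneys. In contralateral kidneys KO against WT was 0.12 for Cxcl1 and 0.049 for Cxcl10 with housekeeping scaling, -0.32 for Cxcl3 and -0.070 for Pf4 with positive control scaling, and for Cxcl3 -0.34 with background subtraction and -0.012 to 0.36 with 1 mouse left out (below 0 without mouse 23). Over all genes, the averaged comparison called 54, and 14 without the replicate block, 223 without mouse 32, from 28 to 56 without another mouse and 575 with macrophage marker scaling. In KO mice it was 46, and 3 without the replicate block, 90 with DESeq2, 370 without mouse 32, 14 without mouse 23, 25 without mice 12 and 17, 27 in the KO libraries alone and 496 with macrophage marker scaling. In WT mice it was 5, and 0 to 55 over the alternatives. The 3 mice per genotype limit the precision, and Cxcl3 and Pf4 were read near background.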
